A study of Mus musculus with 16 samples.

Results

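The 2 strands of the microRNA hairpin miR-126, listed on the array as mmu-miR-126-3p and mmu-miR-126-5p, were followed in the carotid artery of the mouse before and after wire injury. They were chosen by name, as the array features annotated to exactly these 2 of the 611 mouse miRNAs on the array. No measured value entered this rule, but the choice was made with earlier results of these data known. All arteries came from female ApoE-/- mice of the C57BL/6 background on a western-type diet, so that the control group shares the loss of apolipoprotein E and the diet. The groups were 3 uninjured arteries and wire-injured arteries collected 1 day (n = 3), 7 days (n = 3), 14 days (n = 3) or 28 days (n = 4) later. The day 1 mice were 8 weeks old and the others 6 to 8 weeks, per the labels. Each of the 16 arteries was measured on 1 single-colour Agilent array, from 700 ng of total RNA labelled with Cy3.

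miR-126 is made from an intron of Egfl7, a gene of endothelial cells, the cells that line the inside of blood vessels. Its 3p strand is among the most abundant miRNAs of endothelium and is also found in platelets and their precursors. It is known for repressing Spred1 and Pik3r2, which restrain growth factor signalling, and Vcam1, an adhesion molecule for leukocytes. The 5p strand is the less abundant one in most tissues and is known for repressing Dlk1 in endothelial cells. A wire drawn through an artery strips this lining, which then regrows while smooth muscle cells build up a neointima beneath it.

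The mature miR-126-3p and the hairpin that holds it are shown because the array reads both strands of this 1 precursor. The RefSeq table (GRCm38.p6) lists the strand as mmu-miR-126a-3p, at chr2:26591402-26591423 on the plus strand. The hairpin Mir126a, of 73 bases, spans chr2:26591357-26591429 and lies inside the RefSeq span of Egfl7. In the mature strand the capitals mark the seed (bases 2 to 8), which pairs with targets, and in the hairpin they mark miR-126-3p.
miR-126-3p: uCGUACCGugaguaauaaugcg
Mir126a hairpin: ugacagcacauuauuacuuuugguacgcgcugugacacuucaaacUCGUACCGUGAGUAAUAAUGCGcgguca
The seed of miR-126-3p was shared by 0 other sequences among the 1674 mature miRNAs of the table, so it stands without a seed family there. The opposite strand, miR-126-5p, comes from the other arm of the hairpin.

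The arrays differed in brightness. The 75th percentile of the 395 probes that were well above background on every array was 401 to 624.1 intensity units for uninjured arrays, 483.8 to 761.3 for day 1, 816.2 to 1214 for day 7, 518.5 to 1432 for day 14 and 566.5 to 1097 for day 28. Signals were therefore divided by this percentile and given as log2, so that 0 is the percentile itself. The arrays lay on 2 slides of 8: slide 1 held day 1, day 7 and replicates 1 and 2 of day 28, and slide 2 held the uninjured, the day 14 and the other day 28 arrays. Comparisons of day 1 or day 7 with uninjured thus cross the slides, and only day 28 ties them together. On day 28 replicate 2 the log2 of the summed signal of 5 epithelial miRNAs of the miR-200 family was 0.76, against -3.35 to -2.92 on the other day 28 arrays. The 2 miR-126 strands are the endothelial markers of such an array, so the endothelial label has no independent check here. Fewer endothelial cells and less miR-126 per cell cannot be told apart in RNA from a whole artery. Tests used limma over all 5 groups with Benjamini-Hochberg adjustment over the 321 miRNAs tested, and a difference is called at an adjusted p under 0.05. The number of arrays limits the precision.

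miR-126-3p, the dominant strand in endothelium, was well above background in all arteries. It was read by 2 probes of 10 spots each, and all 147 spots of either probe without an outlier mark were well above background, with 0 saturated. The brighter probe, A_54_P2286, ran from 3880 to 18359 intensity units over the 16 arrays and stood for the miRNA. The spread of its spots within an array was 1.89% to 6.58% of their mean. The second probe ran from 1988 to 9939 units and gave the same order of day 1 and day 7, with a difference of 0.64 against 0.65 by the brighter one (log2).

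On the scaled log2 scale mmu-miR-126-3p stood at 3.27, 3.34 and 3.37 in the 3 uninjured arteries. At day 1 it stood at 2.81, 3.29 and 3.27, and at day 7 at 3.62, 3.78 and 3.94. The lowest array of all was thus day 1 replicate 1, and every day 7 artery lay above every uninjured and every day 1 artery. At day 14 the levels were 3.79, 3.61 and 3.68, and at day 28 they were 3.48, 3.63, 3.97 and 3.88. These later arteries also lay above all uninjured ones, and they overlapped with day 7. The group means were 3.33 ± 0.05 (SD, n = 3) uninjured, 3.13 ± 0.27 (SD, n = 3) for day 1, 3.78 ± 0.16 (SD, n = 3) for day 7, 3.69 ± 0.09 (SD, n = 3) for day 14 and 3.74 ± 0.22 (SD, n = 4) for day 28. In order of level day 7 came first, then day 28, day 14, uninjured and day 1, and the first 3 did not differ beyond their spread, nor did the last 2.

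**Figure D1:**
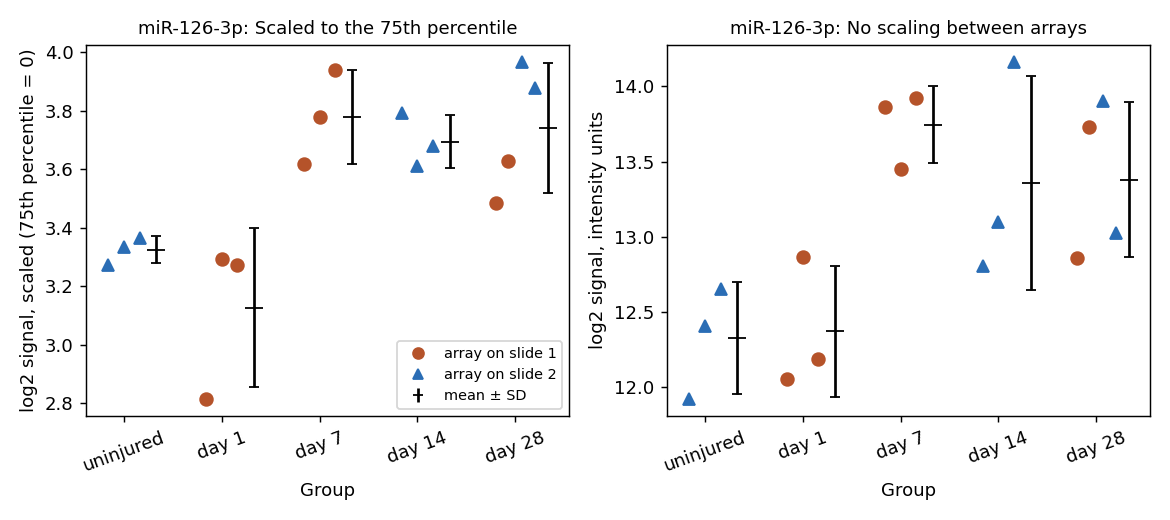
miR-126-3p on each array by group, as log2 signal scaled to the 75th percentile (left) and without scaling between arrays (right); circles are arrays on slide 1, triangles arrays on slide 2, and bars the mean ± SD of a group (n = 3, or 4 at day 28). On the scaled axis the day 7, day 14 and day 28 arteries sit between 3.48 and 3.97, above the uninjured ones at 3.27 to 3.37, and day 1 reaches from 2.81 to 3.29.

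Within groups miR-126-3p was a comparatively steady miRNA. Its SD within groups was 0.18 (log2), against a median of 0.30 over the tested miRNAs, and 16.5% of them varied less. Over all 16 arrays it covered 1.15 log2 units, a range smaller than that of most others, since 19.9% of tested miRNAs covered less. These shares are over all 321 tested miRNAs, not matched for brightness, of which 219 were well above background on every array.

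Day 7 against day 1, both on slide 1, asks whether the level had moved over the first week after the injury. miR-126-3p rose 1.57-fold (log2 0.65 ± 0.16 SE, n = 3 and 3, limma adjusted p = 0.0050), and the groups did not overlap. Its 95% interval ran from 0.31 to 1.00. In this comparison 43.3% of the tested miRNAs were called in either direction, and for 62% of them the groups did not overlap, so a call or a separation is common here. The median difference of all tested miRNAs was -0.19, and 84.4% of them had a lower difference than miR-126-3p. Under the other scalings that median moved, to 0.27 with the 75th percentile over all probes or with median scaling and to 0.50 without scaling, and the rise of miR-126-3p was 1.14, 1.14 and 1.37. Relative to the median of all tested miRNAs it stood between 0.52 and 0.87 higher over 22 settings, single arrays left out aside. The direction and the call were kept in all of these, and also when any 1 array was left out. Without day 1 replicate 1, the lowest array, the rise was 0.50 (adjusted p = 0.0247).

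Day 1 against uninjured asks what the level was soon after the lining was stripped. miR-126-3p did not pass the test (log2 -0.20 ± 0.16 SE, n = 3 and 3, limma adjusted p = 0.353), and the groups overlapped, while 32.4% of the tested miRNAs were called and 47% did not overlap. The 95% interval reached from -0.54 to 0.15. Without day 1 replicate 1 the difference was -0.04. This value depends on the scaling and on the slide: it was -0.83 (adjusted p = 0.0173) when the 75th percentile was taken over all probes, -0.85 (adjusted p = 0.00336) with median scaling, 0.09 with quantile normalization, 0.04 without scaling, and 0.17 with slide as a block. The median of all tested miRNAs moved with it, from 0.24 in the scaling used to -0.31, -0.34, -0.03 and 0.43 in the 4 others in that order. Relative to this median miR-126-3p was 0.44 lower in the scaling used and 0.12 higher with quantile normalization.

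Day 7 against uninjured gave a rise of 1.37-fold (log2 0.45 ± 0.16 SE, n = 3 and 3, limma adjusted p = 0.0305). Each of the 3 day 7 arteries lay above each uninjured one, in a comparison in which 49.8% of the tested miRNAs were called and 61.4% did not overlap. The call ended with the 75th percentile over all probes (log2 0.30, adjusted p = 0.340), with median scaling (0.29, adjusted p = 0.250) and in the authors' value table (0.21, adjusted p = 0.318). It also ended without uninjured replicate 1 or 2 (adjusted p = 0.0831 and 0.0671) or without day 7 replicate 2 or 3 (adjusted p = 0.0610 and 0.109). A block for the slide gave a difference of 0.82 ± 0.22 SE (adjusted p = 0.0149), and no scaling gave 1.42 (adjusted p = 0.0119), where the median of all tested miRNAs stood at 0.86.

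At day 14 and day 28 miR-126-3p lay above the uninjured arteries by 0.37 ± 0.16 SE (log2, n = 3 and 3, limma adjusted p = 0.0840) and 0.42 ± 0.15 SE (log2, n = 4 and 3, adjusted p = 0.0572). Neither passed the threshold, although the groups did not overlap, as they did not for 50.8% and 31.8% of the tested miRNAs. In these comparisons 39.3% and 26.2% of the miRNAs were called. Both can be made within slide 2, where day 14 was 0.37 higher (adjusted p = 0.0108) and day 28 replicates 3 and 4 were 0.60 higher (adjusted p = 0.00557) by limma on the arrays of that slide. Of the 321 tested miRNAs that fit called 76 higher and 50 lower at day 14, and 44 higher and 11 lower at day 28. On slide 1 day 28 stood at 3.48 and 3.63 and on slide 2 at 3.97 and 3.88. This slide difference of 0.37 ± 0.17 SE (log2) did not pass limma's test after adjustment (unadjusted p = 0.053, adjusted p = 0.408). That test called 0 of the tested miRNAs, with 39 at an unadjusted p under 0.05. It rests on the day 28 arrays alone, so it cannot exclude a slide difference. Without day 28 replicate 2, the array with the high epithelial signal, the difference from uninjured was 0.45 (adjusted p = 0.0613).

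Between the later days miR-126-3p showed no called difference. Day 14 against day 7 was -0.08 (95% interval -0.43 to 0.26), day 28 against day 14 was 0.05 (-0.28 to 0.37) and day 28 against day 7 was -0.04 (-0.36 to 0.28), all on the log2 scale, with limma adjusted p from 0.841 to 0.894. The intervals allow changes of up to about the size of the rise from uninjured to day 7. Calls were made for 10.3%, 15.3% and 33.6% of the tested miRNAs in these comparisons.

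Against day 1 the later arteries were higher as well. Day 14 exceeded day 1 by 0.57 (1.48-fold, limma adjusted p = 0.0119) and day 28 by 0.61 (1.53-fold, limma adjusted p = 0.0075), where 39.9% and 34.3% of the tested miRNAs were called. Neither pair of groups overlapped, as was the case for 49.8% and 37.1% of them. A block for the slide gave differences of 0.20 (adjusted p = 0.594) and 0.43 (adjusted p = 0.0679), and the calls ended. The day 14 call also ended without day 1 replicate 1 (0.41, adjusted p = 0.0591). Over the 4 days together miR-126-3p differed from uninjured by limma's F test (F = 6.87, adjusted p = 0.00711), as did 61.1% of the tested miRNAs.

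**Figure D2:**
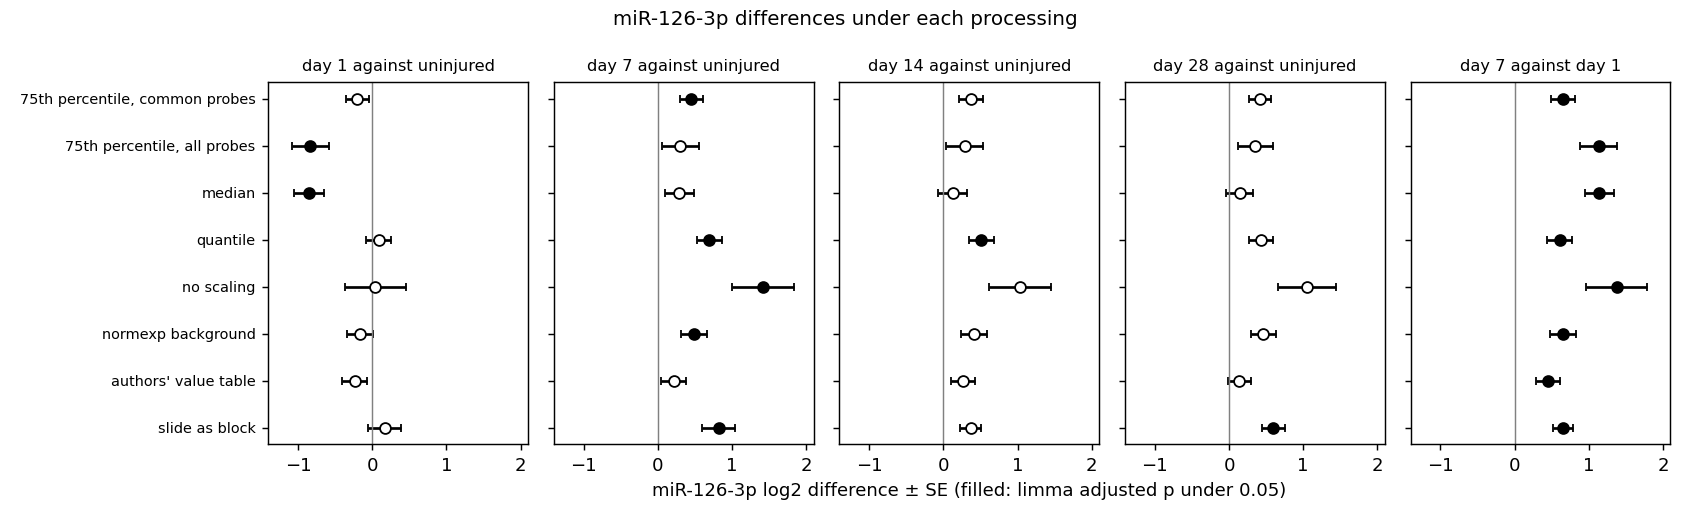
Difference of miR-126-3p in 5 comparisons (panels) under 8 ways of processing (vertical axis), on the log2 scale with its SE; filled points have a limma adjusted p under 0.05. Day 7 against day 1 is filled under all 8, while day 1 against uninjured runs from -0.85 to 0.17 and lies on both sides of 0.

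mmu-miR-126-5p, the strand known for repressing Dlk1, gave almost no signal on these arrays. Its brighter probe, A_54_P1035, read 2.83, 2.03 and 3.44 intensity units in the uninjured arteries, without scaling. It read 5.61, 7.04 and 2.12 units at day 1 and 13.4, 10.8 and 13.7 units at day 7. At day 14 it read 5.49, 5.14 and 13.4 units, and at day 28 it read 7.61, 15.9, 10.0 and 4.54 units. The highest array was day 28 replicate 2 and the lowest was uninjured replicate 2. At least 50% of its spots were well above background on only 3 of the 16 arrays, which were day 7 replicate 1, day 14 replicate 3 and day 28 replicate 2. These 3 had the highest 75th percentiles of all arrays (1214, 1432 and 1097 units).

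Divided by that percentile, the probe lay under the floor of 0.0181 on all 16 arrays, also on the 3 named above. This floor is the median over the arrays of the lowest scaled signal that was well above background on each. miR-126-5p was not well above background on every array of any group, so no fold, test or ratio to miR-126-3p is given for it. The share of its spots that the scanner software marked as positive and significant was 53.3% for uninjured arteries, 79.3% for day 1, 100% for day 7, 89.7% for day 14 and 94.6% for day 28. This mark is laxer than well above background and was applied to signals not scaled between arrays. The second probe, A_54_P4367, read from -2.23 to 1.24 units, and 7 of its 153 spots were marked as positive, so its readings lay around 0. On 10 of the 16 arrays the software's own error of the summed miR-126-5p signal was more than 50% of that signal.

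**Figure D3:**
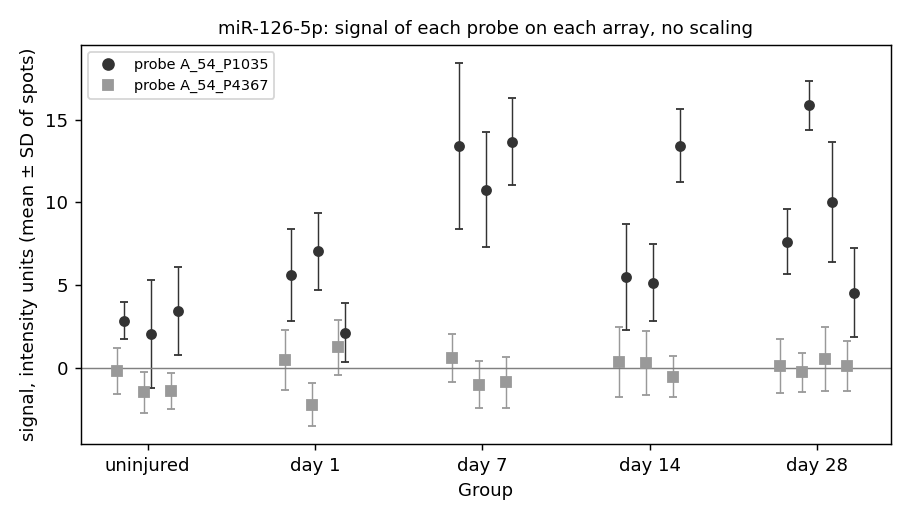
Signal of the 2 miR-126-5p probes on each array by group, in intensity units without scaling, with the SD over the spots of the array. Probe A_54_P1035 reads between 2.03 and 15.9 units and probe A_54_P4367 stays around 0, whereas the brighter miR-126-3p probe read from 3880 units upward on the same arrays.

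miR-143, miR-145, miR-223 and miR-142-3p, markers of other cells of the artery, were each called against uninjured at 3 or 4 of the 4 days, and miR-126-3p at 1. Of all tested miRNAs 32.4%, 49.8%, 39.3% and 26.2% were called at day 1, 7, 14 and 28. miR-143 and miR-145, made in contractile smooth muscle, were both called lower at day 7, 14 and 28 against uninjured, with miR-143 at -1.67, -2.26 and -1.39 and miR-145 at -1.92, -2.55 and -1.47 (log2). These 6 values stayed below 0 under each scaling, although without scaling only those of day 14 were called. miR-223, of neutrophils and monocytes and also of platelets, was called higher at each day, by 4.10, 3.18, 3.00 and 2.44, and miR-142-3p, of blood cells in general, by 3.07, 2.75, 2.02 and 2.29. Both kept these calls under each scaling and with slide as a block. Of the 6 leukocyte miRNAs 4, 5, 5 and 5 were called higher at day 1, 7, 14 and 28, and miR-150 at no day. Of all tested miRNAs 19.6%, 27.4%, 20.2% and 16.8% were called higher at these days. Of the 3 red blood cell miRNAs (miR-451, miR-144 and miR-486) 0 were called by limma at any day against uninjured, with 1 of the 12 values at an unadjusted p under 0.05. Between day 7 and day 1 they differed by -1.15 to -0.80, with 0 called and 2 at an unadjusted p under 0.05.

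Some of these markers also changed from day 1 to day 7, where miR-126-3p rose and 18.7% of all tested miRNAs were called higher and 24.6% lower. Over that interval miR-143 fell by 1.19 and miR-145 fell by 1.41 on the log2 scale. Of 6 leukocyte miRNAs 2 were called higher, miR-155 (log2 2.06) and miR-342-3p (log2 1.44), and 1, miR-223, lower (log2 -0.93). The calls of miR-143, miR-145 and miR-223 ended without scaling, and those of miR-143 (-0.70) and miR-223 (-0.44) also ended when the 75th percentile was taken over all probes. With median scaling they were called at -0.69 and -0.44. For the smooth muscle markers the log2 of the summed signal was 1.56 to 2.36 at day 1 and 0.62 to 0.85 at day 7. That of the red blood cell markers went from 4.79 to 5.98 to 3.92 to 4.79. That of the leukocyte markers went from 4.73 to 4.87 down to 3.97 to 4.35. The leukocyte sum was mostly miR-223, with a mean log2 signal of 4.57 at day 1, where miR-142-3p, the next, had 1.08. Of the neuronal list, 2 of 3 tested members were called lower between these days, beside the 24.6% of all tested miRNAs. The log2 of its summed signal went from 0.50 to 1.46 at day 1 to -1.95 to -1.47 at day 7. All 3 fat-associated miRNAs were called lower as well, beside the same 24.6%. The part of these shifts in the value of miR-126-3p was not tested.

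Set against such a marker within the same array, the change of miR-126-3p does not depend on dividing an array by a constant. Against miR-143 the log2 ratio changed from its uninjured mean by 0.29 ± 0.69 (SD, n = 3) at day 1, 2.12 ± 0.21 (SD, n = 3) at day 7, 2.63 ± 0.12 (SD, n = 3) at day 14 and 1.81 ± 0.25 (SD, n = 4) at day 28. The uninjured arteries spread by 0.51 (SD) around their mean, so miR-126-3p and miR-143 parted at day 7 and later by more than the spread between arrays, and not at day 1. Against miR-223 the ratio changed by -4.30 ± 0.34 (SD, n = 3) at day 1, -2.72 ± 0.39 (SD, n = 3) at day 7, -2.63 ± 0.31 (SD, n = 3) at day 14 and -2.03 ± 0.23 (SD, n = 4) at day 28. miR-126-3p thus lost ground to the myeloid marker in every injured group, by the most at day 1. Against miR-451, the red blood cell miRNA, it changed by -0.59 ± 0.45 (SD, n = 3) at day 1 and 0.98 ± 0.60 (SD, n = 3) at day 7, with an uninjured spread of 0.82 (SD).

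**Figure D4:**
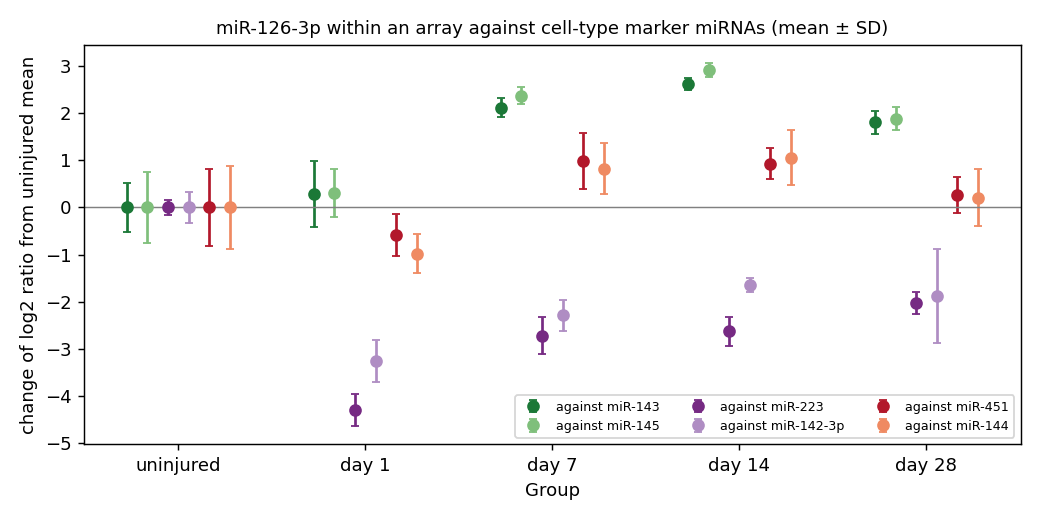
Change of the log2 ratio of miR-126-3p to each of 6 marker miRNAs within an array, from the mean of the uninjured arteries, by group (mean ± SD, n = 3, or 4 at day 28). Ratios to the smooth muscle miRNAs miR-143 and miR-145 lie between 1.81 and 2.92 from day 7 on, those to the myeloid and leukocyte miRNAs miR-223 and miR-142-3p lie between -4.30 and -1.65 after injury, and those to miR-451 and miR-144 stay between -0.98 and 1.06.

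A list of 19 other miRNAs known from endothelium or angiogenesis was set beside miR-126, and 18 of them were tested. At day 1 against uninjured 2 were called higher and 5 lower, where 19.6% and 12.8% of all tested miRNAs were. At day 7 the counts were 5 and 8 (27.4% and 22.4% of all tested), at day 14 4 and 6 (20.2% and 19%), and at day 28 5 and 1 (16.8% and 9.35%). The median differences of the list were -0.20, -0.19, -0.24 and 0.12 at day 1, 7, 14 and 28, against 0.24, 0.00, 0.00 and 0.03 for all tested miRNAs. Members thus moved both ways, and without scaling limma called 0 of them lower at each day (1 at an unadjusted p under 0.05 at day 1, and 0 at the other days). Between day 7 and day 1, where miR-126-3p rose, 3 members were called higher and 2 lower (18.7% and 24.6% of all tested). Among the 3, miR-222 was well above background on 0 of the uninjured and 0 of the day 1 arrays. The list median was 0.06 against -0.19. That count changed to 9 and 1 with median scaling.

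The members with the smallest p show this mixture. miR-132, known to act on a Ras inhibitor in growing vessels, was higher by 1.31, 1.44, 1.12 and 1.02 (log2) at day 1, 7, 14 and 28, with limma adjusted p from 1.1e-05 to 0.000317. miR-221, which acts on Kit and on cell cycle inhibitors, was higher by 1.26, 1.81, 1.52 and 1.82 (adjusted p from 4.2e-05 to 0.00139), of which the day 1 call ended with the 75th percentile taken over all probes (0.63), median scaling (0.61), quantile normalization (0.58) and slide as a block (0.74). The day 1 call of miR-132 ended with quantile normalization (0.52). miR-100, which acts on Mtor, was called lower each time, at -1.28, -1.36, -0.69 and -0.64 (adjusted p from 9.1e-05 to 0.0237), and these calls ended without scaling, those of day 1 and day 28 also with slide as a block (-0.61 and -0.30). miR-23b, of the clusters with miR-27b and miR-24, was called lower at day 7 (-1.18) and day 14 (-0.79), also not without scaling. Also among the 4 smallest p of a day was miR-24, called lower at day 1 (-0.58), again not without scaling. The others were miR-10a, called higher at day 14 (1.07) and day 28 (0.69), and miR-10b, called higher at day 28 (0.94). Between day 7 and day 1 the called members were miR-130a at 0.56, miR-296-5p at 0.80 and miR-222 at 0.57, which rose, and miR-218 at -3.07 and miR-23b at -0.89, which fell. Of these, miR-222 was well above background on 0 of the day 1 arrays and all 3 of day 7. Its day 1 mean of -5.63 lay near the floor of -5.79, so the size of its difference depends on the floor. The call of miR-23b ended with the 75th percentile taken over all probes (-0.41), median scaling (-0.40) and no scaling (-0.17).

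Across the 16 arrays the miRNAs whose scaled log2 signal followed that of miR-126-3p most closely were miR-34a (Pearson r = 0.85), miR-199a-3p (0.84), miR-322 (0.84), miR-674* (0.84) and let-7i (0.83). The comparison covered the 219 miRNAs detected on all arrays, and the median r of the others with miR-126-3p was -0.11. The arrays share their slide, their scaling and the 5 groups, so these coefficients describe the likeness and are not tested. Within slide 1 the 5 coefficients ran from 0.85 to 0.88 and within slide 2 from 0.77 to 0.89. With median scaling and with quantile normalization 4 of the 5 stayed among the 20 closest. Under median scaling miR-34a, the closest in the scaling used, ranked 25 (r = 0.78). Under quantile normalization miR-674* ranked 26 (r = 0.65).

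Having been chosen for their likeness over these same arrays, the 5 are described here without a test. miR-34a, a target of p53, was 2.39 higher (log2) at day 7 than at day 1 and stood 2.17, 2.78 and 2.34 above uninjured at day 7, 14 and 28. miR-199a-3p, of mesenchymal cells, differed by -0.72 at day 1 from uninjured and by 1.86 at day 7 from day 1 (log2), so that it too was lowest at day 1 and highest at day 7. miR-322 was 1.44 and miR-674* 0.73 higher at day 7 than at day 1. let-7i, of a family that restrains proliferation, was 0.94 higher over that interval and differed from uninjured by -0.77 at day 1. Of these 5, RefSeq's table lists miR-199a-3p under the array's name, and its sequence is shown, with the seed in capitals, because its seed differs from that of miR-126-3p given above.
miR-199a-3p: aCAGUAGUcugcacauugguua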

How the data were processed

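Per the file headers, the authors' scanner files were made with Agilent Feature Extraction 9.5.1.1, which subtracted background within each array; the deposited spot intensity values are not normalized between arrays. The same files hold the software's p-value of each spot against background, used by the authors' software for the mark of positive and significant spots, and flags for outliers.

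Unmarked spots of a probe were averaged, scaled per array to the 75th percentile of the 395 common probes, raised to a floor of 0.0181 where lower, and put on a log2 scale with no pseudocount. A probe counted as well above background when at least 50% of its unmarked spots did. The brightest probe stood for a miRNA, and 321 miRNAs, those well above background throughout 1 group or more, were tested with limma 3.58.1 in R 4.3.3 (1 model, 5 groups, no covariate; estimated prior degrees of freedom 1.98). The series design states 3 to 4 animals per group, so p-values reflect the spread between animals where each array is 1 animal. The pipeline was tested on simulated data. The authors' value table, also intensity, equals the software's total gene signal for miR-126-3p (largest difference 0%); its column medians over 610 mouse miRNAs run unscaled from 3.81 in uninjured replicate 1.

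The members, the lists and the rule for named miRNAs were chosen with earlier results of these data known. That rule took both strands, the 5 closest by Pearson r, 6 cell markers and, per comparison described, the 4 listed endothelial miRNAs with the smallest p. Every listed endothelial miRNA called between day 7 and day 1 is named as well. Comparisons of miR-126-5p, the strand ratio and the strand correlation were planned and not run, since that strand was not well above background throughout any group. Alternatives covered scaling, background, floor, filter, outlier spots, probe, summary, slide, replicate number, samples in the fit, moderation and each array left out. Each probe alone and unscaled values with or within slides were added after seeing the data.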

Additional observations from a re-analysis of the deposited data

Results flagged for a closer look

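The effect of injury on miR-126-3p differed between days by the limma contrast of the days themselves. The difference from uninjured was 0.65 greater at day 7 than at day 1 (log2, adjusted p = 0.0050), 0.57 greater at day 14 than at day 1 (adjusted p = 0.0119) and 0.61 greater at day 28 than at day 1 (adjusted p = 0.0075). All 3 day 7, all 3 day 14 and all 4 day 28 arteries lay above all 3 day 1 arteries. Such a separation, in either direction, held for 62%, 49.8% and 37.1% of the tested miRNAs, and 43.3%, 39.9% and 34.3% were called. Day 1 and day 7 share slide 1, and with slide as a block the other 2 differences were 0.20 (adjusted p = 0.594) and 0.43 (adjusted p = 0.0679).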

How the results depend on the processing

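The rise of miR-126-3p from day 1 to day 7 kept its direction and its call under all 23 alternatives (0.45 to 1.37, log2) and with each array left out (0.50 to 0.73). Values below are limma log2 differences, and where a cause is not plain from the alternative, the cause was not tested. Day 7 against uninjured lost its call with the all-probe 75th percentile (0.30), median scaling (0.29), total gene signal (0.20), the authors' value table (0.21), replicate block with slide (0.74) and no scaling with slide (1.59), and ran from 0.37 to 0.53 with an array left out. Day 1 against uninjured was called lower with the all-probe 75th percentile (-0.83) or median scaling (-0.85), and turned above 0 with quantile normalization (0.089), no scaling (0.045), slide as a block (0.17), replicate block with slide (0.088) and no scaling with slide (0.21). Day 14 against uninjured gained a call with quantile normalization (0.51), within slide 2 and with only those 2 groups (0.37 each), and with probe A_54_P2285 (0.42). Day 28 against uninjured gained one with slide as a block or within slide 2 (0.60 each), a floor 2 times as high, the mean over probes, trend and robust moderation, and probe A_54_P2285 (0.42 each), and ran from 0.34 to 0.50 with an array left out. Day 14 against day 1 lost its call with quantile normalization (0.42), no scaling (0.99), slide as a block (0.20), replicate block with slide (0.28) and no scaling with slide (0.82), and ran from 0.41 to 0.65 with an array left out. Day 28 against day 1 lost it with quantile normalization (0.34), no scaling (1.01), the authors' value table (0.37), total gene signal (0.35), slide as a block or within slide 1 (0.43 each), replicate block with slide (0.47), only those 2 groups (0.61) and no scaling with slide or within slide 1 (0.92 each). The F test over the 4 days missed the threshold with total gene signal (F = 3.34) and the authors' value table (F = 3.04). Differences near 0 turned: day 14 against day 7 with total gene signal (0.041) and the authors' value table (0.051); day 28 against day 14 with quantile normalization (-0.078), total gene signal (-0.15), the authors' value table (-0.13), the replicate block (-0.00014) and an array left out (-0.030 to 0.13); day 28 against day 7 with the all-probe 75th percentile (0.049) and an array left out (-0.12 to 0.047).

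Replicate numbers do not pair the arrays: of 30 same-numbered pairs 8 had correlated deviations over 0.1, with a median r of -0.06 against 0.02 for other pairs. The replicate block alone changed no call of miR-126-3p. For miR-126-5p no alternative was run: with the filter lifted it lies at the floor on all 16 arrays, so it has no spread to test, and signal over background is what limits it.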
